A study of Homo sapiens with 6 samples.

Results

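The genes described here are *NRAS*, which encodes one of the RAS GTPases, and 9 genes that report or restrain signalling from RAS to the kinase ERK. They were taken by name from a fixed list: *NRAS*, *DUSP4*, *DUSP5*, *DUSP6*, *SPRY2*, *SPRY4*, *SPRED1*, *SPRED2*, *ETV4* and *ETV5*. They make up 10 of the 58735 genes listed in each library, and all 10 passed the filter on low values. Expression was measured by RNA sequencing in SK-N-AS, an established human neuroblastoma cell line known to carry an activating *NRAS* mutation. Cells received an siRNA against Prp19 (siPrp19) or a negative control siRNA (NC), and the labels give 72 h after transfection (a shorter time stands in the study's methods). Prp19 is a splicing factor and ubiquitin ligase encoded by *PRPF19*. Both groups were the same cell line, carried the same *NRAS* background and differed in the labels by the siRNA alone. There were 3 libraries per group, which the study describes as biological replicates.

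In the RAS-MAPK pathway, active RAS recruits RAF kinases, which switch on MEK and then ERK, and ERK changes transcription in the nucleus. Among the genes that ERK induces are its own brakes. Dual-specificity phosphatases (DUSPs) dephosphorylate ERK, whereas Sprouty (SPRY) and SPRED proteins act upstream at the level of receptors, RAS and RAF. *ETV4* and *ETV5* encode ETS transcription factors that rise with pathway activity, so their transcripts are commonly read as pathway output. RAS-pathway mutations recur in neuroblastoma, particularly at relapse.

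The names of the libraries need care. In 4 of the 6 files, the value column was named for another library than the record under which the file was listed. For 2 of these, the columns NCb and siPrp19b, the record carried the opposite group. Libraries are therefore called by their column names (NCa to NCc and siPrp19a to siPrp19c), and each main result is given with these 2 libraries and, as the 4-library comparison, without them. *PRPF19* measured 83.0 FPKM (a read count scaled for exon length and library depth) in NCa, 83.1 in NCb and 93.0 in NCc. It measured 19.6 FPKM in siPrp19a, 19.1 in siPrp19b and 18.5 in siPrp19c, so the column names, and not the records, separated high from low. The log2 fold change of *PRPF19* (siPrp19 minus NC) was -2.12 ± 0.07 (SE, n = 3 per group), with an adjusted p = 0.000215 in limma. With 4 libraries it was -2.15, with an adjusted p = 0.0266.

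Between 14887132 and 19977811 reads per library could be recovered from the FPKM values. Mitochondrial genes took 8.29% of the reads in siPrp19a and 5.15% to 5.49% in the other 5 libraries. The libraries were not equally distinct. The chi-square per degree of freedom between gene counts was 1.72 for NCa and NCb and 2.59 for siPrp19b and siPrp19c, but 18.0 to 46.7 for the other 13 pairs. These 2 close pairs still differed by more than the sampling noise of read counts, which does not show that they were separate cultures. The main comparison counted them as separate libraries. The *SPRED1* difference and the counts of genes that passed are also given with each pair averaged. Of 7 adrenergic neuroblastoma markers, 6 exceeded 1 FPKM in every library, and the summed level of the 7 was 299 to 316 FPKM in NC and 235 to 246 in siPrp19. Of 5 mesenchymal markers, 4 did so, with sums of 203 to 229 and 163 to 189 FPKM. Of 8 markers of epithelial, blood and endothelial cells, 1 did so, the leukocyte gene *PTPRC* at 24.9 to 30.7 FPKM in NC and 16.9 to 20.4 in siPrp19, while *CD3E* and *CDH5* were listed at 0 in all 6 libraries. The sum of these 8 was 25.8 to 31.7 FPKM in NC and 17.5 to 21.4 in siPrp19. All 3 sums were thus lower in siPrp19, and their part in the results below was not tested.

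One of the 10 genes passed the adjusted threshold of 0.05, *SPRED1*, which was lower in siPrp19. In the same comparison, 7.94% of all tested genes passed in either direction (1089 of 13718), 2.57% higher and 5.37% lower. The share among the 10 genes, 10%, was therefore near that of all genes. The median log2 fold change was 0.01 over the 10 genes and -0.02 over all tested genes. The 2 groups did not overlap for 6 of the 10 genes. Of these, *DUSP4*, *DUSP5* and *SPRY4* had the higher values in siPrp19, as did 13.2% of all tested genes. *SPRY2*, *DUSP6* and *SPRED1* had the lower values, as did 18.1% of all tested genes. In the 4-library comparison, none of the 10 passed in limma, where 0.0146% of all tested genes did (2 of 13718). An unadjusted p below 0.05 in limma was found for 3 of the 10 and for 1685 of the 13718 tested genes.

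**Figure D1:**
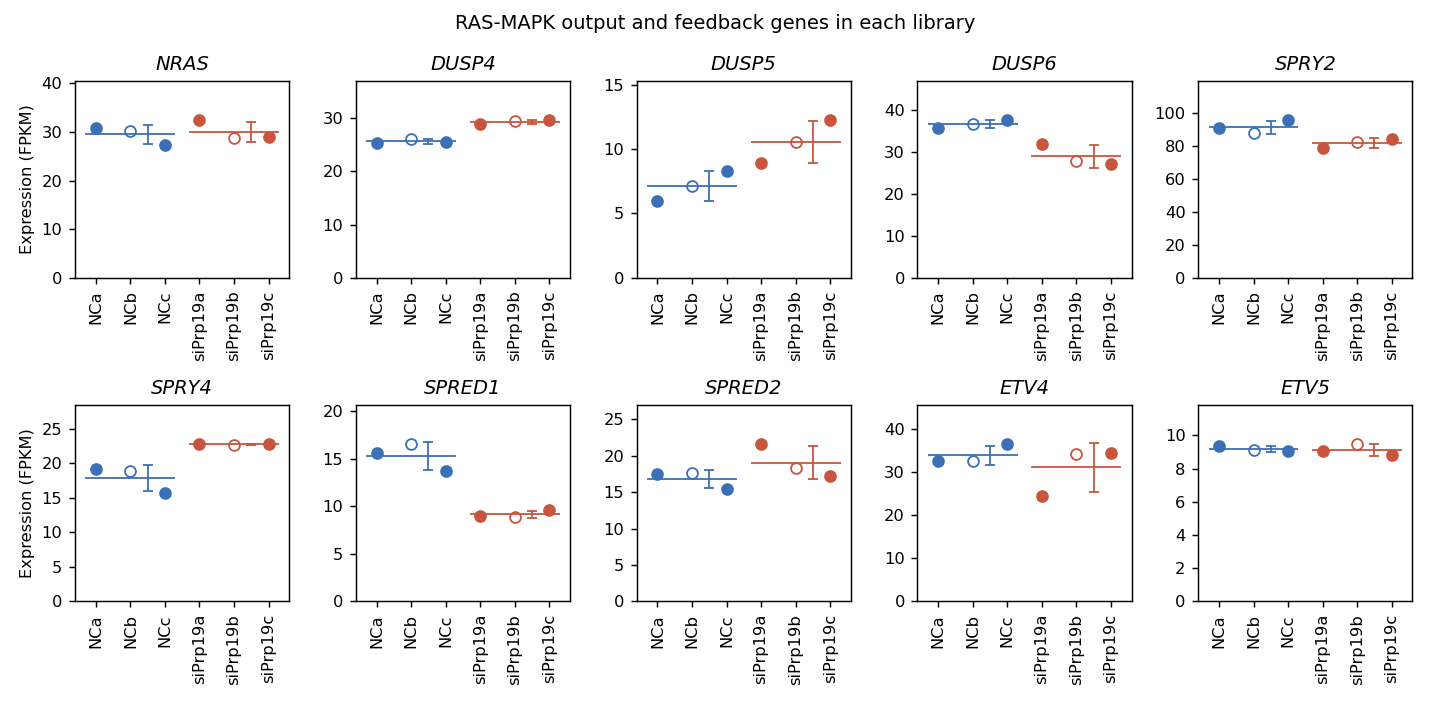
Expression (FPKM, linear axes from 0) of the 10 genes in each library, NC in blue and siPrp19 in red. Lines are group means with SD bars (n = 3), and open circles mark NCb and siPrp19b, whose records carry the opposite group; the *SPRED1* values of siPrp19, 8.88 to 9.57, all lie below those of NC, 13.7 to 16.5.

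The *SPRED1* promoter is shown because it belongs to the one gene of the 10 that passed the threshold. The stretch is the 250 bases before a RefSeq transcription start on the plus strand, chr15:38252586-38252835 (GRCh38.p14), and 78.4% of its bases are G or C. The annotated span of the gene, given below, starts at 38252326, so the stretch lies inside it. No bases before that span were searched for motifs.

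SPRED1: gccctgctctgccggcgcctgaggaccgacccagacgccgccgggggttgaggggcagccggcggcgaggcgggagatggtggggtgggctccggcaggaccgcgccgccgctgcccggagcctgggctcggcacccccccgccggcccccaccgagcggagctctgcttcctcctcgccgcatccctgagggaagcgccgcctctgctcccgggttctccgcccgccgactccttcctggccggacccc

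No capitals appear because 3 motifs searched on both strands in the window from 250 bases before to 50 after the start had no match. These were the ETS core CCGGAAG, present in 10.3% of 35116 RefSeq promoter windows of the same length, the AP-1 motif TGANTCA, in 7.71%, and the CREB motif TGACGTCA, in 1.85%. Windows were also given for *NRAS*, *DUSP6*, *SPRY2*, *SPRY4* and *SPRED2*. The *NRAS* window held 1 ETS core match, and 1 of 2 *SPRED2* windows held 2 AP-1 matches. These matches are letters in a window, not binding sites.

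*NRAS* itself showed no difference beyond the spread between libraries. *NRAS* (ENSG00000213281; chromosome 1, 114704469 to 114716894, minus strand, GRCh38) measured 30.9, 30.2 and 27.4 FPKM in NCa, NCb and NCc. In siPrp19a, siPrp19b and siPrp19c it measured 32.4, 28.7 and 28.9 FPKM. The ranges overlapped, with the lowest value in NCc and the highest in siPrp19a. The log2 fold change was 0.02 ± 0.08 (SE), with a 95% interval from -0.17 to 0.22 and an adjusted p = 0.897 in limma. Without NCb and siPrp19b it was 0.07. FPKM values do not separate the mutant from the normal allele.

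The 3 tested genes whose log2 expression ran most like that of *NRAS* over the 6 libraries were *SETD2* (Pearson r = 0.997), *DUSP16* (r = 0.992) and *IQGAP1* (r = 0.990). These values describe 6 libraries that include the 2 close pairs, and carry no test. In *IQGAP1*, the most abundant of the 3, the values were 19.2, 18.0 and 13.8 FPKM in NC and 21.5, 16.2 and 15.5 in siPrp19. As with *NRAS*, the extremes were NCc and siPrp19a.

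The 3 ERK phosphatase genes differed in direction. *DUSP4* and *DUSP5*, whose products act in the nucleus, had higher values in siPrp19, and *DUSP6*, whose product holds ERK in the cytoplasm, had lower ones. None of the 3 passed the adjusted threshold. *DUSP4* (ENSG00000120875; chromosome 8, 29333064 to 29350668, minus strand) measured 25.3, 26.2 and 25.5 FPKM in NC and 28.95, 29.4 and 29.6 in siPrp19. The groups were narrow and did not overlap. The log2 fold change of *DUSP4* was 0.19 ± 0.06 (SE), with an adjusted p = 0.111 in limma, and 0.20 with an adjusted p = 0.572 in the 4-library comparison.

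*DUSP5* (ENSG00000138166; chromosome 10, 110497838 to 110511544, plus strand) was the least abundant of the 10 in NC. It measured 5.97, 7.16 and 8.34 FPKM in NC and 8.96, 10.5 and 12.2 in siPrp19, resting on 247 to 672 reads per library. The lowest siPrp19 library, siPrp19a, stood just above the highest NC library, NCc, so the spread within each group was nearly as wide as the step between them. The mean was 1.48 times that of NC, and the log2 fold change was 0.51 (SE 0.14) at an adjusted p = 0.0783 in limma. The 4-library value was 0.51 with an adjusted p = 0.3996. A pseudogene, *DUSP5P1*, measured 0.33 to 0.46 FPKM in NC and 0.64 to 0.89 in siPrp19, and how reads shared with such copies were counted was not given in the sources used here.

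*DUSP6* (ENSG00000139318; chromosome 12, 89347232 to 89353271, minus strand), a much-used marker of ERK activity, measured 35.6, 36.5 and 37.4 FPKM in NC. It measured 31.9, 27.7 and 27.0 FPKM in siPrp19, where siPrp19a lay between the NC libraries and the other two. The mean differed by -21.0%, and the log2 fold change was -0.33 (SE 0.08) at an adjusted p = 0.0541 in limma. Without siPrp19a it was -0.40 with an adjusted p = 0.0227, whereas leaving out any other single library gave adjusted p from 0.0761 to 0.194. In the 4-library comparison it was -0.31 with an adjusted p = 0.453. After quantile normalization it was -0.22 with an adjusted p = 0.208 in limma.

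The Sprouty genes also lay in opposite directions. *SPRY2* (ENSG00000136158; chromosome 13, 80335976 to 80340951, minus strand) was the most abundant of the 10. It measured 90.9, 87.6 and 95.5 FPKM in NC and 78.6, 82.4 and 84.2 in siPrp19. The groups did not overlap, but the log2 fold change was small at -0.16 (SE 0.07), with an adjusted p of 0.249 in limma, and it was -0.0048 after quantile normalization. With 4 libraries it was -0.19.

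*SPRY4* (ENSG00000187678; chromosome 5, 142310427 to 142326455, minus strand) measured 19.1, 18.9 and 15.7 FPKM in NC. In siPrp19 it measured 22.8, 22.7 and 22.8 FPKM, a range far narrower than in NC, where NCc was lowest. The mean was 1.27 times that of NC, and the log2 fold change was 0.33 (SE 0.09) at an adjusted p = 0.0641 in limma. Without NCc it was 0.25 with an adjusted p = 0.0387, whereas leaving out any other single library gave adjusted p from 0.107 to 0.188. In the 4-library comparison it was 0.37 with an adjusted p = 0.377. *SPRY4-AS1*, which overlaps it on the other strand, measured 0.70 to 0.87 FPKM in NC and 1.10 to 1.31 in siPrp19. Whether counting used strand was not given in the sources used here.

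The SPRED genes held the one change that passed. *SPRED1* encodes a protein that brings neurofibromin, the product of *NF1*, to the membrane, where it switches RAS off. Inherited loss of *SPRED1* causes Legius syndrome, a disorder of the RAS pathway. *SPRED1* (ENSG00000166068; chromosome 15, 38252326 to 38357249, plus strand) spans 104.9 kb with 9 merged exon blocks. It measured 15.6, 16.5 and 13.7 FPKM in NC and 8.97, 8.88 and 9.57 in siPrp19. The siPrp19 libraries lay within 1 FPKM of each other, well below the lowest NC library, NCc. *SPRED1* fell to 0.599 times the NC mean, and its log2 fold change was -0.68 ± 0.08 (SE, n = 3 per group), with a 95% interval from -0.87 to -0.48 and an adjusted p = 0.00703 in limma. It ranked 161 of 13718 tested genes by p. The exact two-sided permutation test gave p = 0.1, the smallest that 3 libraries against 3 allow.

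The size of the *SPRED1* difference held without the contradictory libraries, but not its call. In the 4-library comparison *SPRED1* measured -0.60 ± 0.13 (SE) with an unadjusted p = 0.00317 and an adjusted p = 0.155. With the close pairs averaged it was -0.65, with an adjusted p = 0.141. Leaving out any single library gave -0.75 to -0.62, with adjusted p from 0.00581 to 0.0450. *NF1* measured 3.26, 3.22 and 2.05 FPKM in NC and 3.21, 2.47 and 2.29 in siPrp19, with overlapping ranges and an adjusted p = 0.851 in limma.

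*SPRED2* (ENSG00000198369; chromosome 2, 65310851 to 65432637, minus strand), the closely related gene, showed no such difference. It measured 17.5, 17.6 and 15.4 FPKM in NC and 21.6, 18.3 and 17.3 in siPrp19, with siPrp19a highest and the ranges overlapping. The log2 fold change was 0.16 ± 0.10 (SE), with a 95% interval from -0.07 to 0.40 and an adjusted p = 0.379 in limma. Without NCb and siPrp19b it was 0.22.

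The 2 output genes showed no difference that passed the test. *ETV4* (ENSG00000175832; chromosome 17, 43527844 to 43579620, minus strand) measured 32.6, 32.6 and 36.4 FPKM in NC. It measured 24.4, 34.2 and 34.4 FPKM in siPrp19, so siPrp19a stood apart from the other two, which lay within the NC range. The log2 fold change was -0.14 (SE 0.14) at an adjusted p = 0.605 in limma, and without siPrp19a it was 0.02. In the 4-library comparison, which keeps siPrp19a, it was -0.24. *DHX8*, which overlaps *ETV4* on the other strand, measured 13.01 to 16.4 FPKM across the 6 libraries.

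*ETV5* (ENSG00000244405; chromosome 3, 186046308 to 186110318, minus strand) had the fold change closest to 0 of the 10. It measured 9.38, 9.10 and 9.07 FPKM in NC and 9.07, 9.47 and 8.80 in siPrp19, with overlapping ranges. Its log2 fold change came to -0.01 ± 0.06 (SE), with a 95% interval from -0.16 to 0.13 and an adjusted p = 0.938 in limma, and in the 4-library comparison it was -0.04. *CIC*, which encodes the repressor that ERK relieves at *ETV4* and *ETV5*, measured 9.17 to 11.3 FPKM in NC and 9.72 to 10.3 in siPrp19, with an adjusted p = 0.752.

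**Figure D2:**
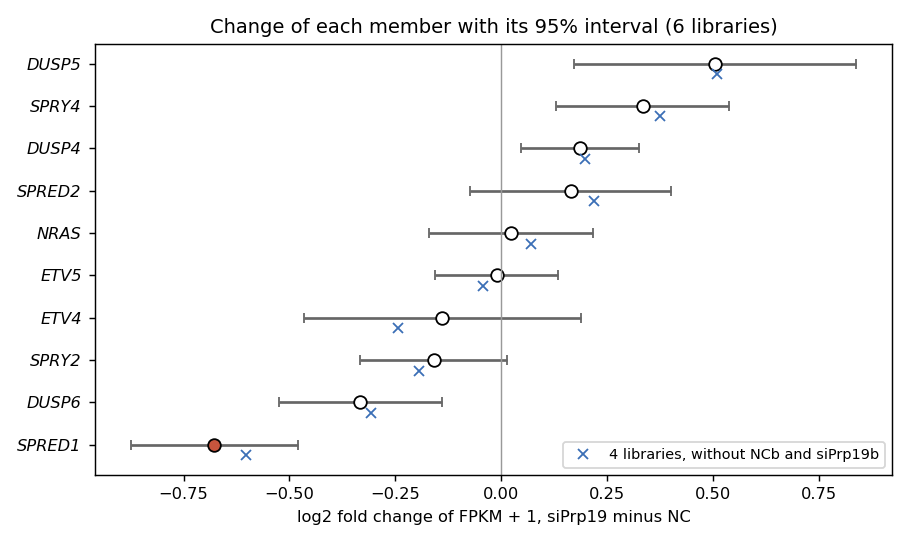
Log2 fold change of FPKM + 1 (siPrp19 minus NC) for each gene with its 95% interval from limma over 6 libraries; crosses give the 4-library comparison. The filled point, *SPRED1* at -0.68, is the one with an adjusted p below 0.05.

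Differences in opposite directions left the summed level of these transcripts nearly in place. The 10 genes together measured 282 to 284 FPKM in the NC libraries and 268 to 275 in the siPrp19 libraries. The 7 feedback inhibitors (3 DUSP, 2 SPRY and 2 SPRED genes) summed to 210 to 212 and 200 to 203 FPKM. Both sums were lower in every siPrp19 library, and *SPRY2* made up the largest part of them.

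The order of levels, on the FPKM scale that corrects for length, shifted near the top and at the bottom. In NC the order of the group means was *SPRY2*, *DUSP6*, *ETV4*, *NRAS*, *DUSP4*, *SPRY4*, *SPRED2*, *SPRED1*, *ETV5* and *DUSP5*. The NC ranges of *DUSP6* and *ETV4* overlapped, as did those of *SPRY4* and *SPRED2* and those of *SPRED2* and *SPRED1*. In siPrp19 the order was *SPRY2*, *ETV4*, *NRAS*, *DUSP4*, *DUSP6*, *SPRY4*, *SPRED2*, *DUSP5*, *SPRED1* and *ETV5*. There the ranges of each neighbouring pair from *ETV4* to *DUSP6* overlapped, as did those from *DUSP5* to *ETV5*.

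Ratios between relatives were compared because a ratio within a library does not depend on that library's scaling. The ratio of *SPRED1* to *SPRED2* was 0.889, 0.938 and 0.887 in NC and 0.416, 0.485 and 0.554 in siPrp19. The ratio of *DUSP4* to *DUSP6* was 0.703 ± 0.018 in NC and 1.02 ± 0.10 in siPrp19 (SD, n = 3). *DUSP6* was thus the more abundant of the pair in every NC library, and *DUSP4* was the more abundant in siPrp19b and siPrp19c. The ratio of *DUSP5* to *DUSP6* was 0.196 ± 0.028 in NC and 0.372 ± 0.087 in siPrp19, and that of *SPRY2* to *SPRY4* was 5.15 ± 0.79 and 3.59 ± 0.13. The groups did not overlap in these 4 ratios. For the DUSP and SPRY ratios among them this followed from the single genes, whose groups already lay apart in opposite directions. For *SPRED1* to *SPRED2* it followed from the ranges of the single genes as well. *SPRED1* measured 13.7 to 16.5 FPKM in NC and 8.88 to 9.57 in siPrp19, and *SPRED2* measured 15.4 to 17.6 and 17.3 to 21.6. The permutation p-values of these 4 ratios below were fixed with it, so these ratios are no further result.

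The ratio of *DUSP4* to *DUSP5* was 3.65 ± 0.59 in NC and 2.82 ± 0.41 in siPrp19, and that of *ETV4* to *ETV5* was 3.69 ± 0.29 and 3.40 ± 0.63. In both the groups overlapped. Two-sided exact permutation tests gave p = 0.1 for each of the 4 ratios without overlap, the smallest possible value, and 0.2 and 0.7 for the others. Adjusted over the 6 pairs, p was 0.15 to 0.7. This design could not reach 0.05 for a ratio.

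**Figure D3:**
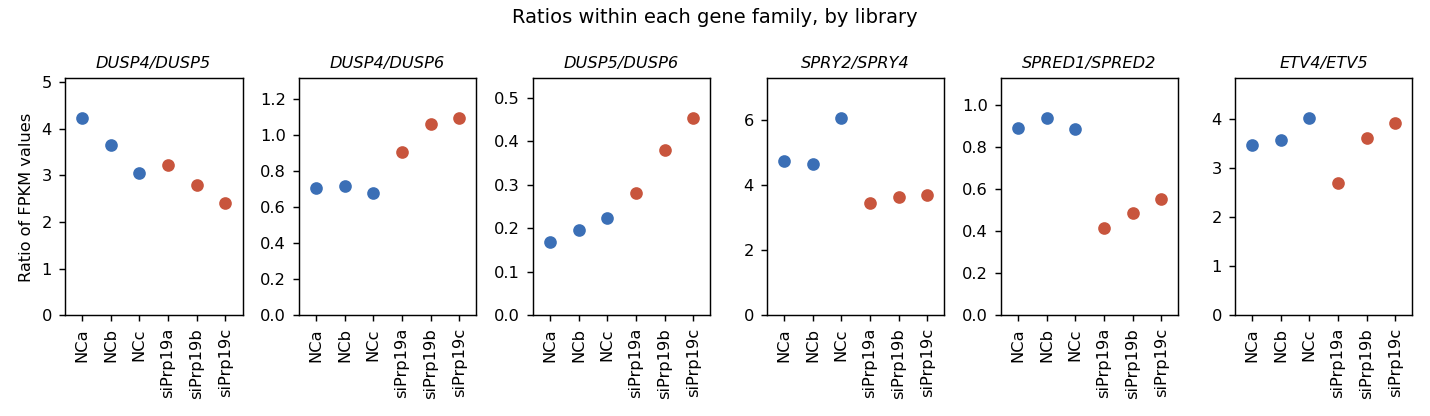
Ratio of FPKM values between members of one gene family in each library (linear axes from 0), NC in blue and siPrp19 in red. The *SPRED1* to *SPRED2* ratio lies at 0.887 to 0.938 in NC and 0.416 to 0.554 in siPrp19.

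The wider pathway was read from 5 lists with 102 genes, of which 83 passed the filter. Of these 83, 6 rose and 11 fell past the adjusted threshold in limma, or 20.5% against the 7.94% of all tested genes. This share carries no test. *DUSP2*, among the 6 that rose, was tested only through its siPrp19 level, and the lists were chosen with earlier results of these data known. The split moved with the scaling: 8 rose and 7 fell after quantile normalization, and 5 rose and 3 fell after rescaling each library to the same sum of FPKM. The median log2 fold change of the 83 was -0.02, the same to 2 decimals as for all tested genes. In the 4-library comparison none of the 83 passed. There 20 of the 83 had an unadjusted p below 0.05 in limma, as did 1685 of all 13718 tested genes. The genes named by the rule below for passing without overlap had the same sign there, which the lack of overlap had fixed in advance. The count of 17 was 0 without NCa or without siPrp19b, 1 without NCb or without siPrp19c, 25 without NCc and 16 without siPrp19a.

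Among RAS proteins and their regulators, 1 of 23 tested genes fell and none rose. This was *MRAS*, whose product activates RAF together with SHOC2, at 5.93, 5.91 and 5.54 FPKM in NC and 4.06, 4.06 and 3.95 in siPrp19 (log2 fold change -0.44, adjusted p = 0.0121 in limma). After rescaling to the same sum its adjusted p was 0.0574. *HRAS*, another RAS gene, measured 17.6 to 24.96 FPKM in NC and 19.2 to 21.2 in siPrp19 and did not pass (adjusted p = 0.978 in limma).

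Among kinases and scaffolds from RAF to ERK and beyond, 1 of 16 rose and 2 fell. *MAP2K1*, which encodes the ERK-activating kinase MEK1, measured 23.1, 22.6 and 23.8 FPKM in NC and 15.5, 17.4 and 18.0 in siPrp19 (log2 fold change -0.44, adjusted p = 0.0188). *RPS6KA2*, which encodes an ERK-activated ribosomal S6 kinase, had a log2 fold change of -0.53 (adjusted p = 0.0254). *MKNK2*, which encodes an ERK-activated kinase of the translation factor eIF4E, had one of 0.37 (adjusted p = 0.0332). After rescaling to the same sum none of these 3 passed, with adjusted p = 0.0777 for *MAP2K1*, 0.0823 for *RPS6KA2* and 0.0599 for *MKNK2*. *MAPK3*, which encodes an ERK kinase, measured 10.9 to 13.6 FPKM in NC and 14.9 to 15.3 in siPrp19 and did not pass, with an adjusted p = 0.0794 in limma.

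Other phosphatases and feedback proteins held 4 that rose and 1 that fell among 12 tested. *DUSP1*, an immediate-early phosphatase gene for MAP kinases, measured 10.8, 11.6 and 12.6 FPKM in NC and 18.3, 23.1 and 25.5 in siPrp19 (log2 fold change 0.87, adjusted p = 0.0111). *DUSP2* also rose (0.70, adjusted p = 0.0215), from 0.77 to 0.95 FPKM to 1.57 to 2.24, on as few as 22 reads in a library. Its NC mean of 0.834 FPKM was below the filter, so it was tested only through its siPrp19 level and had to differ. Its call is therefore no support for the list. *SPRED3*, the third SPRED gene, rose from 4.48 to 5.10 FPKM to 6.75 to 6.92 (0.43, adjusted p = 0.0152), in contrast to *SPRED1*. *SPRY1* fell from 69.2 to 73.7 FPKM to 54.4 to 58.6 (-0.33, adjusted p = 0.0364), but was -0.18 with an adjusted p = 0.287 after quantile normalization and had an adjusted p = 0.142 after rescaling. *DUSP3* also rose (0.30, adjusted p = 0.0276, and 0.0579 after rescaling) and is named outside the rule, after its values were seen.

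Among other ERK output genes and transcription factors, 1 of 21 rose and 4 fell. *FOS*, an immediate-early gene, measured 1.62, 1.47 and 1.71 FPKM in NC and 2.85, 2.81 and 3.03 in siPrp19 (log2 fold change 0.59, adjusted p = 0.0110). The growth regulator *MYC* fell from 18.6, 18.6 and 20.01 FPKM to 13.6, 13.3 and 14.6 (-0.44, adjusted p = 0.0141). The ETS-family genes *ETS2* (-0.52, adjusted p = 0.0129) and *ELK3* (-0.49, adjusted p = 0.0171) fell as well. *PHLDA1* fell by 0.34 on the log2 scale (adjusted p = 0.0397, but 0.168 after quantile normalization and 0.140 after rescaling) and is likewise named after its values were seen.

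Of 19 receptor tyrosine kinase genes listed, 11 passed the filter. Past the adjusted threshold 3 of these 11 fell and none rose, and of all tested genes 5.37% fell and 2.57% rose. *PDGFRA* fell from 26.6, 26.8 and 23.3 FPKM to 19.1, 17.0 and 16.4 (log2 fold change -0.52, adjusted p = 0.0171 in limma). *PDGFRB* (-0.44, adjusted p = 0.0273) and *RET* (-0.40, adjusted p = 0.0276), a receptor of the sympathetic lineage, also fell. After quantile normalization these 2 had adjusted p = 0.0571 and 0.0609. After rescaling to the same sum none of the 3 passed, with adjusted p = 0.0515 for *PDGFRA*, 0.106 for *PDGFRB* and 0.144 for *RET*.

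**Figure D4:**
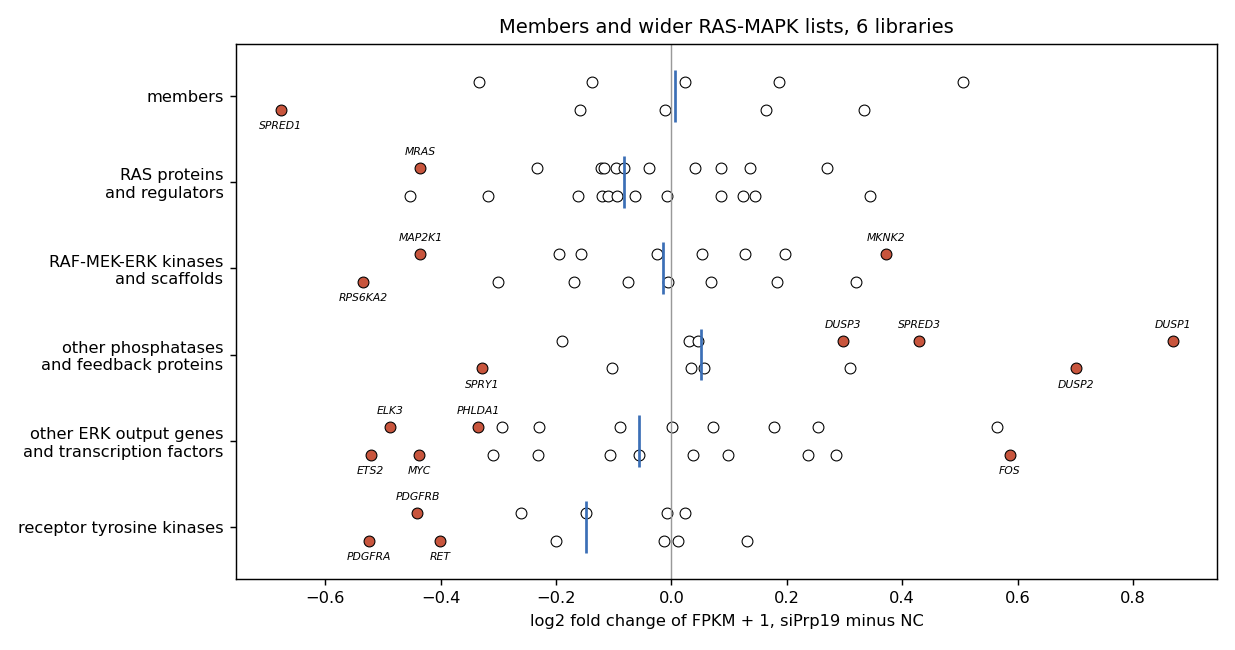
Log2 fold change of FPKM + 1 (siPrp19 minus NC, limma over 6 libraries) of every tested gene of the members and 5 wider lists; filled, named points have an adjusted p below 0.05 and blue bars are medians. Of the phosphatase and feedback list 4 points are filled on the right, whereas the 3 filled receptor genes are on the left.

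How many of the 10 genes passed depended on the model. With voom, a limma model for read counts run on the recovered reads, 4 passed, against 10.2% of all tested genes (1398 of 13718). These were *SPRED1* (-0.73, adjusted p = 0.00143), *DUSP6* (-0.34, adjusted p = 0.0367), *SPRY4* (0.35, adjusted p = 0.0418) and *DUSP5* (0.57, adjusted p = 0.0431). After quantile normalization 3 passed, against 7.92% of all tested genes. These were *SPRED1* (-0.62, adjusted p = 0.0122), *DUSP4* (0.29, adjusted p = 0.0383) and *SPRY4* (0.41, adjusted p = 0.0477). The split of all calls moved with that scaling: 32.4% of the genes that passed were higher in siPrp19 in the main comparison and 46.1% after quantile normalization. The signs of *DUSP4*, *DUSP5*, *DUSP6*, *SPRY2*, *SPRY4*, *SPRED1* and *SPRED2* held in every setting run. Except for *SPRED2*, the groups of these genes did not overlap, so leaving out or averaging libraries could not have changed their sign.

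**Figure D5:**
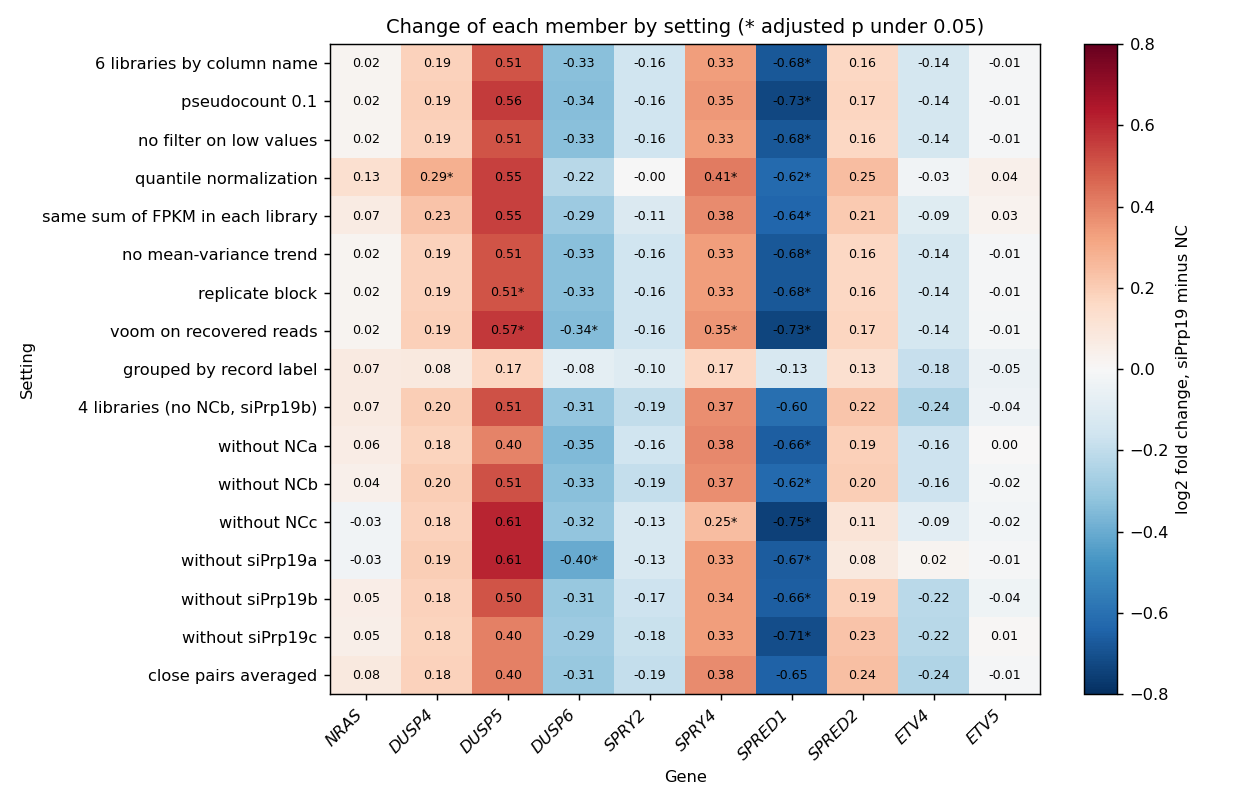
Log2 fold change (siPrp19 minus NC, colour and number) of each gene under every setting run, with an asterisk where the adjusted p is below 0.05. The *SPRED1* column is negative throughout and loses its asterisk in 3 settings: 4 libraries, close pairs averaged, and grouping by record label.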

How the data were processed

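RNA-seq was analysed in 6 SK-N-AS libraries. The authors deposited 1 table per library with an FPKM value for each of 58735 Ensembl genes. Per the labels, reads were processed with HISAT2 (2.0.5) and featureCounts (1.5.0-p3) on hg38. The annotation and strand setting were not given in the sources used here. The authors used DESeq2 for their own tests. Here limma was the main test because the deposited unit is FPKM, and voom, for the recovered reads, was an alternative. All identifiers were found in GENCODE release 29. Symbols came from current names for 58207 and from GENCODE for 528. FPKM times merged exon length gave whole reads (tolerance 0.01) for 100% of values above 0. The total was 1.01 to 1.04 times the implied library size in NC and 0.951 to 0.989 times in siPrp19.

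Each column was assigned to the sample whose description equals its name, and took its group and replicate number from there. Genes with a mean of at least 1 FPKM (13718) were tested on log2(FPKM + 1), which understates changes of low genes, with limma 3.58.1 (mean-variance trend, R 4.3.3). Adjustment was by the Benjamini-Hochberg method over all tested genes, at 0.05. Ratios were compared by exact permutation in scipy 1.17.1. The fit was tested on simulated data in which all libraries were independent, so that test cannot vouch for the calls given here. P-values measure the spread between these libraries.

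Named genes were *PRPF19*, the 10 members, and from each wider list up to 3 rises and 3 falls past the threshold whose groups did not overlap, with *HRAS*, *CIC* and *MAPK3*. Some genes that the rule also names are not reported here. *NF1*, *DUSP3*, *PHLDA1*, *PTPRC* and overlapping genes were added later. The promoter rule took members past the threshold outside chromosome 8. Members, lists and rules were chosen with earlier results of these data known. Alternatives were another pseudocount, filter, scaling, model or fold limit, the replicate block, grouping by record, and leaving out libraries. Averaging the close pairs was chosen after seeing the data.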

Additional observations from a re-analysis of the deposited data

How the results depend on the processing

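Of 176 log2 fold changes under alternatives, 157 had the same sign as before and stayed on the same side of 0.05, and of 49 counts of genes 22 stayed within 1.5 times the main count. Over all tested genes, 1089 passed. The count was 512 without the filter on low values, 656 after rescaling to the same sum, 390 with a fold change above 1.5, 2 in the 4-library comparison, 2 with close pairs averaged and 0 when grouped by record label (191 at an unadjusted p below 0.05 in limma). Leaving out each library gave 253 to 1354. It fell to 264 without NCa, 335 without NCb, 270 without siPrp19b and 253 without siPrp19c, the libraries of the close pairs. Of the 10 members, 1 passed. The count was 3 after quantile normalization, 4 with voom, 2 with the replicate block, 1 to 2 when leaving out each library, and 0 in the 4-library comparison, with close pairs averaged and by record label. Of the wider lists, 17 passed. The count was 10 without the filter, 8 after rescaling, 0 in each of those last 3 settings, and 0 to 25 when leaving out each library.

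*SPRED1* was -0.60 in the 4-library comparison, -0.65 with close pairs averaged and -0.13 by record label, none past the threshold. *PRPF19* was -0.74 by record label. Values that newly passed were *DUSP4* at 0.29 and *SPRY4* at 0.41 after quantile normalization, and *DUSP5* at 0.57, *DUSP6* at -0.34 and *SPRY4* at 0.35 with voom. When leaving out each library, *DUSP6* ranged from -0.40 to -0.29 and *SPRY4* from 0.25 to 0.38. The sign changed for *NRAS* (-0.031 to 0.057), *ETV4* (-0.22 to 0.020) and *ETV5* (-0.036 to 0.012) when leaving out each library, and for *ETV5* after quantile normalization (0.038) and rescaling (0.030). In each of these settings the cause was not tested.

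With the replicate block, 928 genes passed, and *DUSP5*, at 0.51, had an adjusted p = 0.0179 in limma. After each gene's group mean was subtracted, the remaining deviations of same-numbered libraries correlated at 0.13 (a), -0.05 (b) and 0.20 (c). On this measure NCb correlated best with siPrp19a, so the numbers were not taken as a pairing. Depth limits mainly *DUSP5* among the members (247 reads at least).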
